A study of Mus with 2 samples.

Results

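The phagocyte NADPH oxidase and the enzymes that clear its products were followed through 9 genes: the oxidase subunits Cybb, Cyba, Ncf1 and Ncf4, the GTPases Rac1 and Rac2, the superoxide dismutases Sod1 and Sod2, and catalase, Cat. The genes were chosen by name, and a probe belonged to one of them when its transcript accession carried that symbol in RefSeq. All 9 were found, with 12 probes at 21 spots, among 13533 genes with a probe well above background on either array or both. RNA came from bone marrow derived macrophages (BMDMs) of male C57BL6/J mice of 10 weeks, grown for 7 d with 10 ng/mL of M-CSF and then kept for 24 hr under M2 conditions, that is with 10 ng/mL of IL-4. One culture received 10 µM GW4064, a synthetic agonist of the farnesoid X receptor (FXR), and the other received DMSO, the solvent. The number of mice behind each culture was not given in the sources used here, and no array without IL-4 was analysed here.

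The phagocyte oxidase carries electrons from NADPH across a membrane onto oxygen and so makes superoxide. Its catalytic core, made of the products of Cybb (gp91phox) and Cyba (p22phox), sits in the membrane, while cytosolic subunits, p47phox (Ncf1) and p40phox (Ncf4) among them, wait in the cytosol and join the core together with a Rac GTPase when the cell is stimulated. Superoxide dismutases then turn superoxide into hydrogen peroxide, which catalase breaks down. Activity is controlled mainly by this assembly, which an array does not read.

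Each condition had 1 Agilent array, so there was no replicate error and no p-value, and precision is limited by having only 2 arrays. A signal is the brightness of a spot in the green channel after the authors' scanner software had subtracted the background. A log2 difference is the GW4064 array minus the DMSO array after each array's 75th percentile, a signal of 1209 with DMSO and 1265 with GW4064, was set to 0. Errors within the arrays were taken in 3 ways. The software's own error of both signals combined was 0.204 on the log2 scale for the probes of the 9 genes, a 1.15-fold difference. It was the same at all 21 spots of the 9 genes, over signals from 1412 to 220956. It is thus a set value of the software at such signals rather than a spread measured over copies. Over 136 probes with at least 8 usable copies and a signal of 1000 or more, the SD over copies of the log2 difference had a median of 0.071. Over 1093 genes with several probes that bright, the SD between the probes of a gene had a median of 0.061. None of these covers the difference between cultures that were treated alike.

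All 9 genes were well above background on both arrays, and no spot of theirs was marked as uneven or saturated. No gene of the 9 differed 2-fold, where 2.04% of all genes measured were 2-fold or more higher and 2.71% lower on the GW4064 array, so that a count of 0 in 9 does not set them apart. Their log2 differences ran from -0.47 for Ncf1 to 0.28 for Rac2, with 4 genes higher, 5 lower and a median of -0.048. Over all genes measured, 51.6% were higher, 48.2% lower and the median was 0.0069. At a threshold of 1.2-fold, Rac2 was higher and Ncf1 and Cat were lower, against 12.5% of all genes higher and 12.8% lower at that size. Beyond the software's error lay 5 of the 9 differences, namely Rac2, Ncf4 and Sod2 on the higher side and Ncf1 and Cat on the lower. The same error was passed by 18.9% of the 6466 genes with a signal of 1000 or more on both arrays. The genes were chosen by name with earlier results known, and no test was made of this share. In a bulk RNA sample, fewer cells that express a gene and less of its RNA in each cell cannot be told apart.

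**Figure D1:**
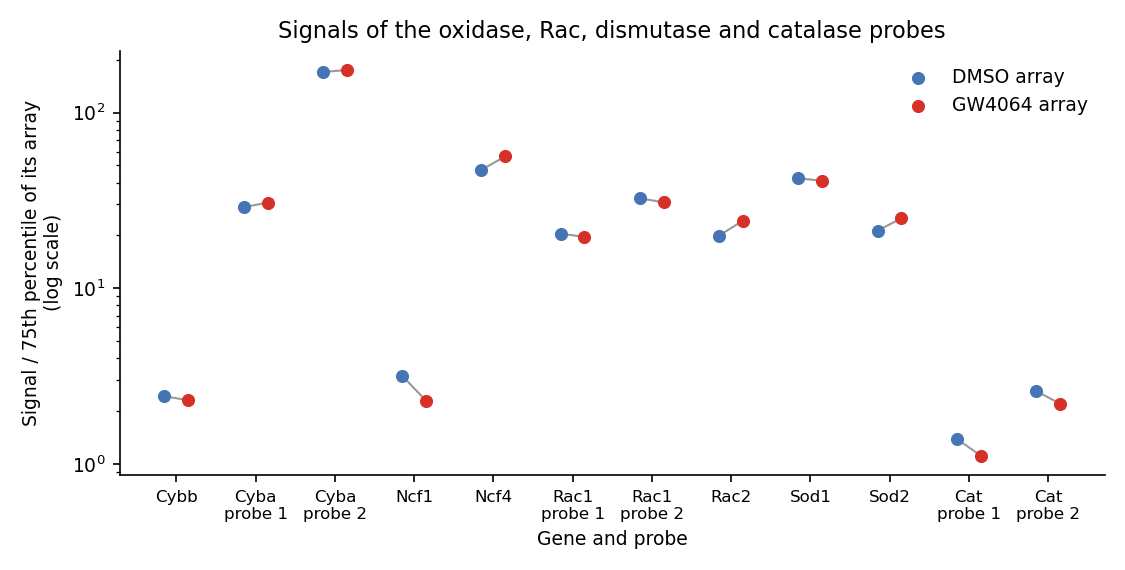
Signal of each probe of the 9 genes on the DMSO array (blue) and the GW4064 array (red), divided by the 75th percentile of its array, on a log axis. The Rac2 points are means of 10 copies, other points are single spots, and lines join the arrays. Brightness cannot be compared between probes. Lines for Ncf1 and both Cat probes slope down, those for Ncf4, Rac2 and Sod2 slope up, and the rest are nearly flat.

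The membrane core was nearly level between the arrays. Cybb, the electron-carrying subunit, gave a signal of 2938 with DMSO and 2920 with GW4064 at its single spot, a log2 difference of -0.075. Cyba, its partner, without which the core is unstable, was read by a pair of probes. The first gave 34995 with DMSO and 38862 with GW4064, and the second 205893 and 220956, which came to log2 differences of 0.086 and 0.036 and a mean of 0.061. Both genes lay within the software's error. Of the 12578 genes measured on both arrays, 65.0% differed by as much as Cybb or more and 70.8% by as much as Cyba or more. The directions of these small values were not firm, since centring on RNA spiked into each sample as a control put Cyba at -0.11. That setting moved the median of all genes measured on both arrays to -0.17.

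The cytosolic subunits stood apart from each other. Ncf1 encodes p47phox, the organizer that brings the other cytosolic subunits to the membrane. Its single spot gave 3839 with DMSO and 2904 with GW4064, a log2 difference of -0.47 or 1.38-fold lower, the farthest from 0 of the 9. Among the 6466 bright genes, 3.4% differed by as much as Ncf1 or more in either direction. No other spot within 300 µm of it differed 8-fold between the arrays, and the median log2 difference of 61 spots around it was -0.033. Over 13 other settings the value of Ncf1 lay between -0.64 and -0.40 and was lower in each. Several of these settings could not change it, since it was read at 1 unmarked spot well above background. Others, such as spike-in centring, shift every gene alike.

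Ncf4 encodes p40phox, which binds a phosphoinositide of phagosome membranes. Its signal was 57105 with DMSO and 71248 with GW4064, a log2 difference of 0.25 or 1.19-fold higher, as large as which 12.2% of the bright genes differed. The spot lay in an area where 6 others within 300 µm differed 8-fold between the arrays, so it has no value once such areas are left out. The part of this area in the difference was not tested, and the median log2 difference of the 78 spots around it was -0.020. Ncf4 was 0.17 with quantile normalization, lowest at 0.080 with centring on the spike-in RNA, both within the software's error, and highest at 0.32 without scaling.

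A difference between Ncf4 and Ncf1 does not depend on a shift of a whole array. It was 0.72 on the log2 scale, a 1.65-fold change of their ratio, and between 0.65 and 0.88 in the 12 other settings that measured both. Many of these settings shift a whole array or cannot change a single unmarked spot, and so could not move it. Leaving out areas of clustered 8-fold differences, which drops Ncf4, gave no value. For the core, Cyba minus Cybb came to 0.14 and lay between 0.097 and 0.16 in the other settings.

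**Figure D2:**
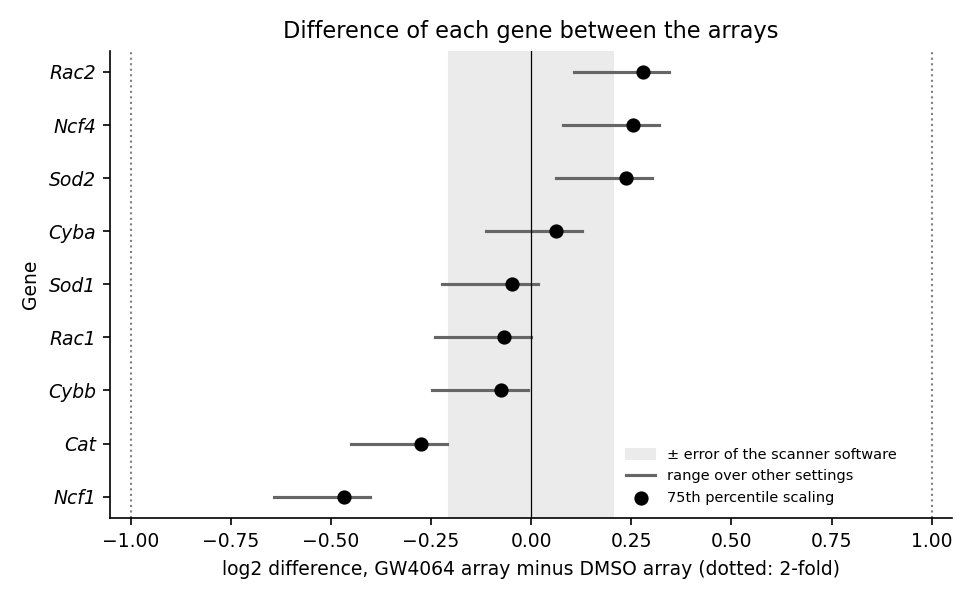
Log2 difference of each of the 9 genes between the arrays (GW4064 minus DMSO). Points show the 75th percentile scaling, dark lines the lowest to highest value over the other settings, the grey band the software's error of 0.204 either way, and dotted lines 2-fold. Ncf1 and Cat lie left of the band and Sod2, Ncf4 and Rac2 right of it, and every line ends well inside 2-fold.

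The Rac GTPases switch the assembled oxidase on. Rac1 is found in most cell types and Rac2 mainly in blood cells, where it serves the oxidase of neutrophils in particular. The pair of Rac1 probes gave 24718 and 24842 in one case and 39299 and 39030 in the other, with DMSO first, for log2 differences of -0.058 and -0.076. Rac1 was thus level within the software's error, at a mean of -0.067.

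The Rac2 probe was printed 10 times, the only one of the 12 probes with copies. Its signals ran from 23146 to 26468 on the DMSO array with a mean of 24146 ± 1043 (SD, 10 copies), and from 27622 to 32427 on the GW4064 array with a mean of 30682 ± 1519 (SD, 10 copies). Copies share 1 RNA sample and are not replicates of a treatment. After scaling, every copy was higher on the GW4064 array than at the same position on the DMSO array, and 9 of the 10 were above the highest DMSO copy. Of 109 probes with 10 usable copies and a signal of 1000 or more, 22.0% were higher at all 10. The log2 difference was 0.28 ± 0.083 (SD, 10 copies), or 1.21-fold, with a lowest copy of 0.15 and a highest of 0.41. The 3 copies in areas with clustered 8-fold differences gave a mean of 0.23, and the other 7 gave 0.30. Centred on the spike-in RNA, Rac2 was still higher (0.11), within the software's error. Rac2 minus Rac1 was 0.35 and lay between 0.35 and 0.37 in the other settings, many of which shift a whole array and so could not change it.

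**Figure D3:**
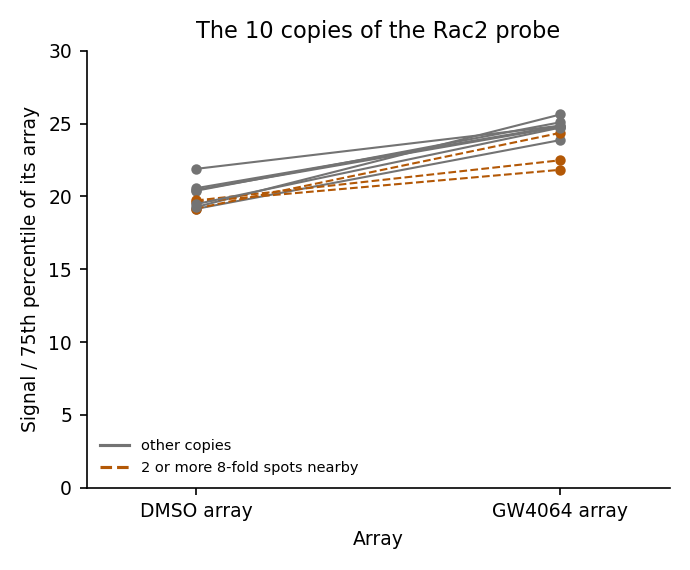
Signal of the 10 copies of the Rac2 probe, divided by the 75th percentile of each array, with a line for each position on the array. DMSO copies lie between 19.14 and 21.89 and GW4064 copies between 21.83 and 25.63, and all 10 lines slope up. Dashed lines mark the 3 copies with 2 or more other spots within 300 µm that differed 8-fold between the arrays.

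Of the enzymes that remove superoxide, Sod1, the copper and zinc enzyme of the cytosol, gave 51112 with DMSO and 51731 with GW4064, a log2 difference of -0.048. Its difference was within the software's error, and 72.2% of the bright genes differed as much or more. Sod2, the manganese enzyme of mitochondria, gave 25721 and 31720, a log2 difference of 0.24 or 1.18-fold higher. Each was read at a single spot with no 8-fold differences within 300 µm. The spots around Sod2 had a median log2 difference of 0.10, the highest around any probe of the 9 genes, and its own value was 0.19 with quantile normalization, 0.13 after a normexp background correction and 0.063 with spike-in centring, all within the software's error. The part of these surroundings in its value was not tested. Sod2 minus Sod1 came to 0.28 and lay between 0.19 and 0.32 in the other settings.

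Catalase, the enzyme of peroxisomes that breaks down hydrogen peroxide, was lower on the GW4064 array at both of its probes. The first gave 1680 with DMSO and 1412 with GW4064, and the second 3143 and 2793, for log2 differences of -0.32 and -0.24. The mean of -0.28, 1.21-fold lower, was beyond the software's error, and 10.2% of the bright genes differed as much or more. The probes differed from one another with an SD of 0.057, less than their mean differed from 0. Between them, 1 other spot within 300 µm differed 8-fold. Cat lay between -0.45 and -0.21 over 13 other settings. Sod2 minus Cat was 0.51 on the log2 scale, the highest of its values, with 0.39 as the lowest over the other settings.

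**Figure D4:**
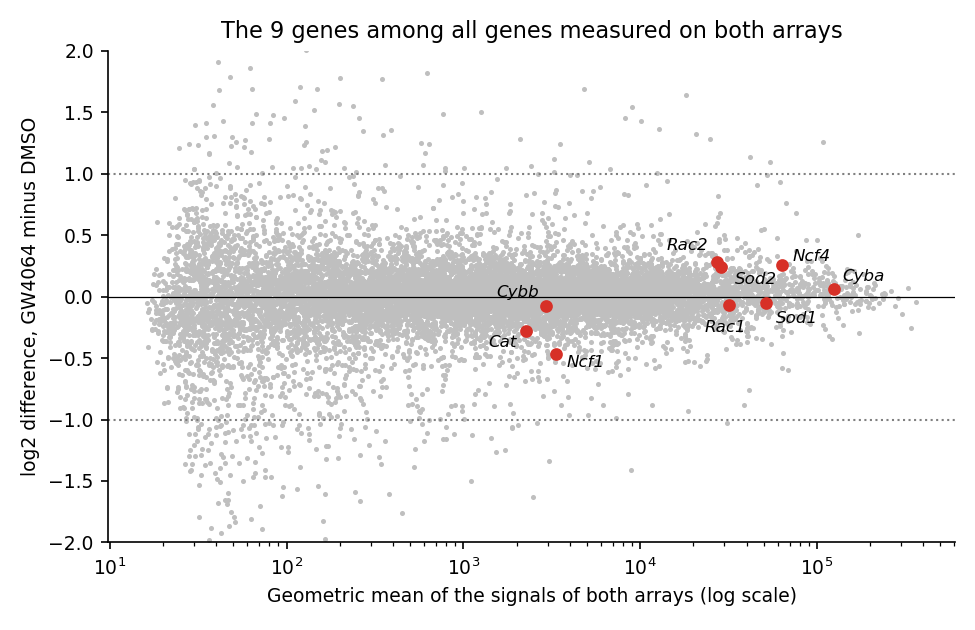
Log2 difference (GW4064 minus DMSO) against the geometric mean of the unscaled signals of both arrays on a log axis, for the 12578 genes measured on both arrays (grey), of which 40 lie beyond the plotted range of -2 to 2. The 9 genes (red) lie at high signals, where the grey cloud is narrow, and between -0.47 and 0.28. Dotted lines mark 2-fold.

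Other NADPH oxidase genes came from a list of 15, of which 13 had a named probe and 8 were well above background. Of these 8, 1 was higher and 7 lower, and the median was -0.10. None differed 1.5-fold, a size that 4.39% of all genes measured reached on the higher side and 5.56% on the lower. Hvcn1, the proton channel that balances the charge carried by the oxidase, had a mean of -0.25, with -0.34 at one probe and -0.17 at the other, which alone lay outside the areas of clustered 8-fold differences. Rap1a, a small GTPase found with the membrane core, had -0.25 at a signal of 65.0, which became -0.12 after the normexp correction.

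Cybc1, a chaperone that the core needs to mature, was the one gene of the list that was higher, by 0.15 (-0.024 with spike-in centring). Nrros, which promotes the breakdown of the Cybb protein, had -0.094 and Rac3 had -0.11. Noxo1 and Noxa1, the organizer and activator of another oxidase, were dim, at signals of 151.9 and 43.5 with DMSO, and had -0.058 and -0.050, directions that turned in 1 and 2 other settings. None of the probes for Nox1, Nox3, Nox4, Duox1 and Duoxa2 was well above background on either array, which leaves Cybb the only catalytic NADPH oxidase gene measured here. Duox2 and Duoxa1 had no probe matched by name and were not analysed here.

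Genes that control Rac and the kinases upstream of oxidase assembly formed a list of 19, all measured, with 7 higher, 12 lower and a median of -0.045. Prkcb encodes a protein kinase C that can phosphorylate p47phox, and its probes gave log2 differences of 0.58 and 0.60, a mean of 1.51-fold higher. Tiam1 and Vav3, exchange factors that load Rac with GTP, had -0.68 and -0.44. In this list 1 gene was 1.5-fold or more higher and 1 lower of 19, near the shares of all genes at that size.

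Enzymes that remove superoxide and peroxides, apart from Sod1, Sod2 and Cat, made a list of 27. All were measured, 17 were higher and 10 lower, where 51.6% and 48.2% of all genes were. The median of the list was 0.045 (-0.13 with spike-in centring). Sod3, the secreted superoxide dismutase, had a signal of 1812 with DMSO and 668.9 with GW4064, a log2 difference of -1.504 or 2.84-fold lower. It was the only gene of the list to differ 2-fold, where 2.71% of all genes were that much lower and 2.04% higher. Sod3 did so in all 13 other settings, between -1.68 and -1.44. Several of these, such as the filters on dim probes and the ways to join probes, could not change a gene with a single bright probe. All 3 superoxide dismutases were thus measured, and their differences were -0.048, 0.24 and -1.504. Gsr, glutathione reductase, gave 0.81 and 0.85 at its probes, a mean of 1.77-fold higher, and Gpx8, a peroxidase of the endoplasmic reticulum, had -0.74 at a signal of 230.3 with DMSO.

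Transcription factors and cofactors described for oxidase genes made a list of 11, with 10 measured, 4 of them higher, 6 lower and a median of -0.033. Cebpe, a factor of late granulocyte differentiation, reached a signal of 585.7 with GW4064 and was 5.23-fold higher than with DMSO, a log2 difference of 2.39 that fell within 1.74 to 2.45 in the other settings. Cebpa, a factor of early myeloid differentiation, had -0.44 at a spot with 4 others nearby that differed 8-fold. Elf1 had 1.097 at a dim probe and -0.076 at a bright one, so no direction is given for it.

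**Figure D5:**
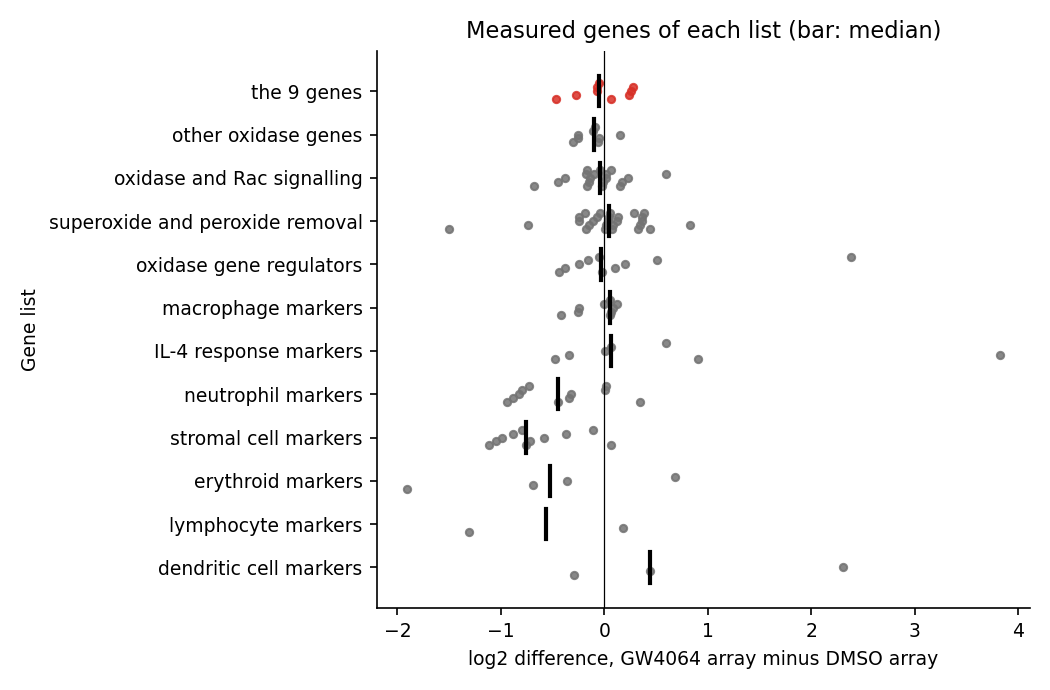
Log2 difference (GW4064 minus DMSO) of each measured gene in 12 lists, with the 9 genes in red and a bar at each median. Points are set apart in height only so that they can be seen, and a gene well above background on 1 array only is drawn at its bound. The 9 genes run from -0.47 to 0.28 with a median of -0.048. The medians of the stromal cell and neutrophil markers are -0.76 and -0.45.

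The macrophage label was checked on 10 genes, of which 9 had a named probe and all 9 were well above background on both arrays, with log2 differences from -0.42 to 0.13. Their summed signal was 371024 with DMSO and 373770 with GW4064. Tyrobp, the brightest, gave 209471 and 218097 of it and had -0.0070. Summed signals, here and below, are not scaled between the arrays, whose 75th percentiles were 1209 and 1265. Of 7 genes of the IL-4 response, all were measured on both arrays, with 5 higher, 2 lower and a median of 0.066. Of the 7, 3 were 1.5-fold or more higher and 0 lower, where 4.39% and 5.56% of all genes were. Chil3, the brightest, had 0.066, and Arg1, 1 of these 3, was 14.2-fold higher with GW4064. The genes on the lower side, named after their values were seen, were Mrc1 (-0.34), the mannose receptor, and Irf4 (-0.48), a transcription factor of the IL-4 response. Tyrobp and Chil3 turned to the other direction in some settings.

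Neutrophils carry the same oxidase, and most of their marker genes were lower on the GW4064 array, as was Ncf1. Of the other oxidase genes, Ncf4 (0.25) and Rac2 (0.28) were higher, and Cybb and Cyba were nearly level. Of 13 markers, 11 were measured, 8 of them lower and 3 higher, with differences from -0.94 to 0.34 and a median of -0.45. At 1.2-fold or more, 8 of the 11 were lower and 1 higher, against 12.8% and 12.5% of all genes. The summed signal of the 11 was 73097 with DMSO and 71347 with GW4064. The brightest was Csf3r at 0.011, a direction that turned in 5 of 13 other settings. Without Csf3r, which macrophages also express, the sum was 14580 and 9617 over 10 genes. The probe for Retnlg was not well above background, and Ly6g had no probe matched by name. Stromal cell markers were lower at 10 of 11 measured genes, with a median of -0.76 and summed signals of 29522 and 16433, and 9 of the 11 were 1.2-fold or more lower and 0 higher, where 12.8% and 12.5% of all genes were. Among them Sparc, the brightest, had -0.80, and Postn and Acta2 were 2.16-fold and 2.07-fold lower. The part of neutrophils in the value of Ncf1, and that of stromal cells in the value of Sod3, was not tested.

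Erythroid cells are rich in catalase, and of 8 erythroid markers 4 were not well above background on either array, Hbb-bs, Alas2 and Slc4a1 among them. Of the 4 others, 3 were lower and Hbb-bt was higher, and only Epor (-0.36) was well above background on both arrays. The 4 had a summed signal of 133.3 with DMSO and 72.4 with GW4064, part of it from values not well above background. Klf1 was at least 3.75-fold lower at a spot with 6 other 8-fold differences nearby. This bound is for the 75th percentile scaling, and Klf1 had a log2 difference of -0.65 after normexp. The part of erythroid cells in the value of Cat was not tested. Of 6 lymphocyte markers 2 were measured, Cd3g and Cd79a were among those not well above background, and summed signals were 244.8 and 255.6, with Cd3e at 0.18 (0.010 with spike-in centring) and Ms4a1 at least 2.47-fold lower (a log2 difference of -0.57 after normexp). Of 5 dendritic cell markers, Xcr1 and Clec9a were not well above background. The summed signals of 186628 and 159243 came almost wholly from Itgax (-0.30), which macrophages also express, and Flt3 was at least 4.95-fold higher. Its log2 difference was 0.72 after normexp and 1.65 without the filter on dim probes, both below that bound.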

How the data were processed

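The authors deposited the scanner output of 2 arrays, with the intensity of each spot as Agilent Feature Extraction 10.7.1.1 wrote it (background taken off, trends across the array evened out), and a log2 table of both. The intensities were not scaled between arrays, and the normalization of the table was not given in the sources used here. Its differences equalled those computed here within 0.001 for all probes, apart from a constant. Scale and direction are therefore known, and the centring of each probe is not.

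The log2 intensity minus the 75th percentile over 43020 non-control spots was used. Marked spots (399 with DMSO, 207 with GW4064) were left out, copies were averaged, and a gene took the mean over those of its probes that stood well above background on either array. A probe dim on 1 array was set there to the lowest level well above background, giving a bound. Symbols came from RefSeq (GRCm38.p6) by accession without version and matched 26445 of 39200 probes. No coordinates are given, since RefSeq and the array's design follow different builds. Probe sequences were not used here, so cross-hybridisation between Rac1 and Rac2 was not tested.

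Both arrays lay on 1 slide and in 1 scan. The calculations were tested on simulated data. With 1 array per condition there was no test, and 2-fold was the threshold. The 9 genes, the 11 other lists and the settings were chosen with earlier results of these data known. Named were the 9 genes, the list of other oxidase genes, the genes of the next lists 1.5-fold or more apart (or the 3 farthest), and of each marker list the brightest gene and those 2-fold apart. Genes not above background or without a probe are also named. A few genes of these lists are counted but not reported by name here. Alternatives were other scalings, the deposited log2 table, normexp (offset 50) on the median intensity, marked spots kept, other filters on dim probes, other ways to join probes, other thresholds, and leaving out areas with 2 or more 8-fold spots within 300 µm (16.5% of spots). Tools were limma 3.58.1 in R 4.3.3 and, in Python 3.11.15, pandas 2.3.3, statsmodels 0.14.6 and numpy 2.4.6, with figures drawn in matplotlib 3.10.9.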

Additional observations from a re-analysis of the deposited data

How the results depend on the processing

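No paired analysis was possible because only 1 array was made for each condition. Directions of the 9 genes were the same in every setting that measured them, apart from Cyba with spike-in centring and Sod1 (0.017) without scaling. Not every setting could change them. Filters on dim probes, keeping marked spots and the median over probes left all of them as they were. Taking the brightest probe left genes with 1 probe as they were. The deposited table could only shift every gene by the same constant. Settings that shift a whole array could not change a difference between genes, such as Sod2 minus Sod1. With spike-in centring the median of the 9 genes was -0.22, and the medians of the other oxidase genes, of Rac and oxidase signalling, of superoxide and peroxide removal and of the oxidase gene regulators were -0.28, -0.22, -0.13 and -0.21. No gene of the 9 passed 2-fold in any setting. With the 75th percentile scaling none passed 1.5-fold, and at 1.2-fold 1 was higher and 2 were lower. Ncf1 alone went past 1.5-fold elsewhere, at -0.64 with spike-in centring and -0.62 after normexp. Spike-in centring lowered every gene alike, by 0.174, the median log2 difference of the spiked RNA between the arrays. Why the spiked RNA differed, and the cause of the shift after normexp, were not tested. All spots of the 9 genes were well above background on both arrays, and what limits their values was not tested.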
